A study of Mus musculus with 12 samples.

Results

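The chaperone and heat shock genes *Hspa1a*, *Hspa1b*, *Hspa8*, *Hspa5*, *Hsp90aa1*, *Hsp90ab1*, *Dnajb1* and *Hsph1* were followed in ChIP-seq of mouse microglia, the resident macrophages of the brain. A peak was taken as theirs when the deposited annotation gave one of these 8 names as its nearest gene. For Rpb2 (Rbp2 in the study), which is part of RNA polymerase II, 25 of 26706 peaks met this rule and all 8 genes were present among the 10206 genes named. For H3K27Ac, the acetylation of histone H3 at lysine 27 that marks active promoters and enhancers, 20 of 55862 peaks met it, from 7 of the 16945 genes named. Microglia came from the whole brain of 2-mo-old C57BL/6J mice that were WT (*Cx3cr1* +/+) or KO (*Cx3cr1* eGFP/eGFP). In KO, the gene of a green fluorescent protein takes the place of part of both germline copies of *Cx3cr1*, the fractalkine receptor, so the loss is not restricted to microglia. Stained cells of 3 mice of 1 sex were combined for each sample, fixed and then sorted. By label, 1 female and 1 male pool per genotype and antibody gave n = 2 pools against 2. The 4 input samples of the series were not analysed here. Coordinates are those of mm10. In RefSeq, the members lie at chr17:34969359-34972156 (*Hspa1a*), chr17:34956429-34959238 (*Hspa1b*), chr9:40801276-40805202 (*Hspa8*), chr2:34772090-34776529 (*Hspa5*), chr12:110691036-110696395 (*Hsp90aa1*), chr17:45567778-45573261 (*Hsp90ab1*), chr8:83608175-83612653 (*Dnajb1*) and chr5:149616843-149636498 (*Hsph1*).

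Chaperones hold or refold proteins that have lost their shape. HSP70 proteins bind exposed hydrophobic stretches in an ATP-driven cycle that J-domain proteins start and nucleotide exchange factors such as HSP110 close, and HSP90 takes over clients close to their final fold. Some members are made in every cell, whereas others are induced when heat shock factor binds heat shock elements, and their promoters are a classical setting of polymerase pausing just downstream of the start site. The ER member is induced through a different sequence, the ER stress element, when unfolded proteins gather in the endoplasmic reticulum.

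Libraries held 11662185 to 44332626 reads for Rpb2, of which 11.2 to 15.1% lay in peaks. For H3K27Ac, totals ran from 10395804 to 21134403 reads, and 15.9% of reads lay in peaks in the WT female library against 61.1 to 65.3% in the other 3. Peaks on chromosome Y held 214 and 266 Rpb2 reads in the male WT and KO libraries, 0 in the KO female and 136 in the library with the label WT female. Reads in all Rpb2 peaks were 1554998, 2497192, 5415932 and 1309593 in the same order. The Y reads go against the sex label of that last library, so sex may not be balanced between genotypes for Rpb2. That library is named by its label throughout and results are also given without it. At the *Cx3cr1* start site, a place upstream of the replaced sequence that does not check the genotype, Rpb2 was 481 and 505 CPM in the WT pools and 476 and 443 CPM in the KO pools. Of 10 microglial marker genes, 9 had a promoter Rpb2 peak, with 323 to 330 CPM per listed gene in each library. None of 6 neuronal, 3 perivascular macrophage or 4 T cell markers had one, and 1 gene each of the astrocyte, oligodendrocyte and endothelial lists did, at 5.84 to 28.1 CPM per listed gene. The oligodendrocyte list was the one that differed most between pools, from 28.1 CPM per gene in the library labelled WT female to 5.84 in the KO male, and its part in the results was not tested.

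Promoter sequence is shown because it bears on where reads could be placed and on which element a promoter holds. RefSeq promoters of build GRCm38.p6 were matched for 5 members, while *Hspa8*, *Hsp90aa1* and *Hsp90ab1* are named only. First comes the pair *Hspa1a* and *Hspa1b*, neighbours on chromosome 17 whose start sites lie 12918 bp apart. The 250 bases before each start site follow, 5′ to 3′ on the minus strand, from chr17:34972157-34972406 and chr17:34959239-34959488, with capitals at the bases that differ.
Hspa1a: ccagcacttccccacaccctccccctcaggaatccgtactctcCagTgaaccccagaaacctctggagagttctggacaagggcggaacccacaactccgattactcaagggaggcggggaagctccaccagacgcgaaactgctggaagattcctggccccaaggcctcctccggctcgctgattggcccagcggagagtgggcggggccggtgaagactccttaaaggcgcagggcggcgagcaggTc
Hspa1b: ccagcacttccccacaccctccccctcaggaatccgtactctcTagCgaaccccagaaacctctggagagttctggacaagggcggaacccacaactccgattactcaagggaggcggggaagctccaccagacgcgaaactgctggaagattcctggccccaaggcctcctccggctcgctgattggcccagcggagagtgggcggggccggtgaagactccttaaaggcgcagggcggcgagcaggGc
The promoters differed at 3 of 250 bases, C44T, T47C and T249G, written as the *Hspa1a* base, the position counted from 1 at the 5′ end, and the *Hspa1b* base. Between them ran 201 identical bases, from −203 to −3 bp. A 51-base read that falls wholly inside this stretch has more than 1 place of origin and was dropped by the authors' restriction to uniquely mapped reads.

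Second is the promoter of *Hspa5*, whose 250 bases before the start site are chr2:34771840-34772089 on the plus strand, with the ER stress element in capitals.
Hspa5: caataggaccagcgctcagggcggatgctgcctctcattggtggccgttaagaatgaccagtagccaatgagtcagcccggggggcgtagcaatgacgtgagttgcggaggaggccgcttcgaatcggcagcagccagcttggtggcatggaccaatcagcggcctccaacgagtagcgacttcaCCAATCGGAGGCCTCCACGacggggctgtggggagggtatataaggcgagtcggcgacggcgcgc
The element, searched on both strands as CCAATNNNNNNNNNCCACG, lay at −65 to −47 bp and was found in 0.12% of 32851 RefSeq promoters of 300 bases. The main Rpb2 peak of *Hspa5* ran from −67 to 150 bp and so covered it. Its first 5 bases are also the CCAAT box, which on its own was in 37.41% of promoters and occurred 4 times in that of *Hspa5*. Last is a single site: a heat shock element of 3 units, searched on both strands as GAANNTTCNNGAA, was found in *Hsph1* alone of the 5 members as TTCTGGAAAGTTC, within its Rpb2 peak and 15 to 27 bp past the start site that the deposited table uses, position 149636315, whereas the RefSeq span of the gene starts at 149636498. From the start of its other RefSeq promoter entry, the site lies at 36 to 48 bp. Such elements were in 0.6% of promoters. The shorter form of 2 units, GAANNTTC, was in 7.86% of promoters and was present once in the *Hspa1a* and *Hspa1b* promoters at −104 to −97 bp, outside their Rpb2 peaks. That site lies in the identical stretch where reads were dropped, so the lack of a peak there says nothing about polymerase. With the 2 units in the other order, TTCNNGAA was in 8.52% of promoters. Of the 5 members, only *Hsph1* held it, also at −54 to −47 bp from the deposited table's start site. *Dnajb1* held none of these heat shock elements in its window. Searches took exact matches of the stated letters only, so a promoter without a match may still hold an imperfect element.

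The loss of repeated sequence was measured directly, as the share of 51-base windows that occur more than once on the assembled chromosomes. In the gene spans beyond 1000 bp from the start site, this share was 50.5% for *Hspa1a*, 49.0% for *Hspa1b*, 48.5% for *Hspa8* and 42.3% for *Hsp90aa1*. It was 4.0% for *Hsp90ab1*, 3.0% for *Hspa5*, 1.1% for *Hsph1* and 0.5% for *Dnajb1*. At Rpb2 peaks of *Hspa1a* it was 39.5% for the peak at 38 bp and 10.7% for the peak at −255 bp, and it was 20.1% for the peak of *Hspa1b* and 4.8% for that of *Hsp90aa1*. The other 8 promoter peaks of the members held 0%, as did 9613 of all 10124 promoter peaks scored. Values of *Hspa1a* and *Hspa1b* are therefore uncertain, and bodies of the first 4 genes were only partly open to measurement.

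**Figure D1:**
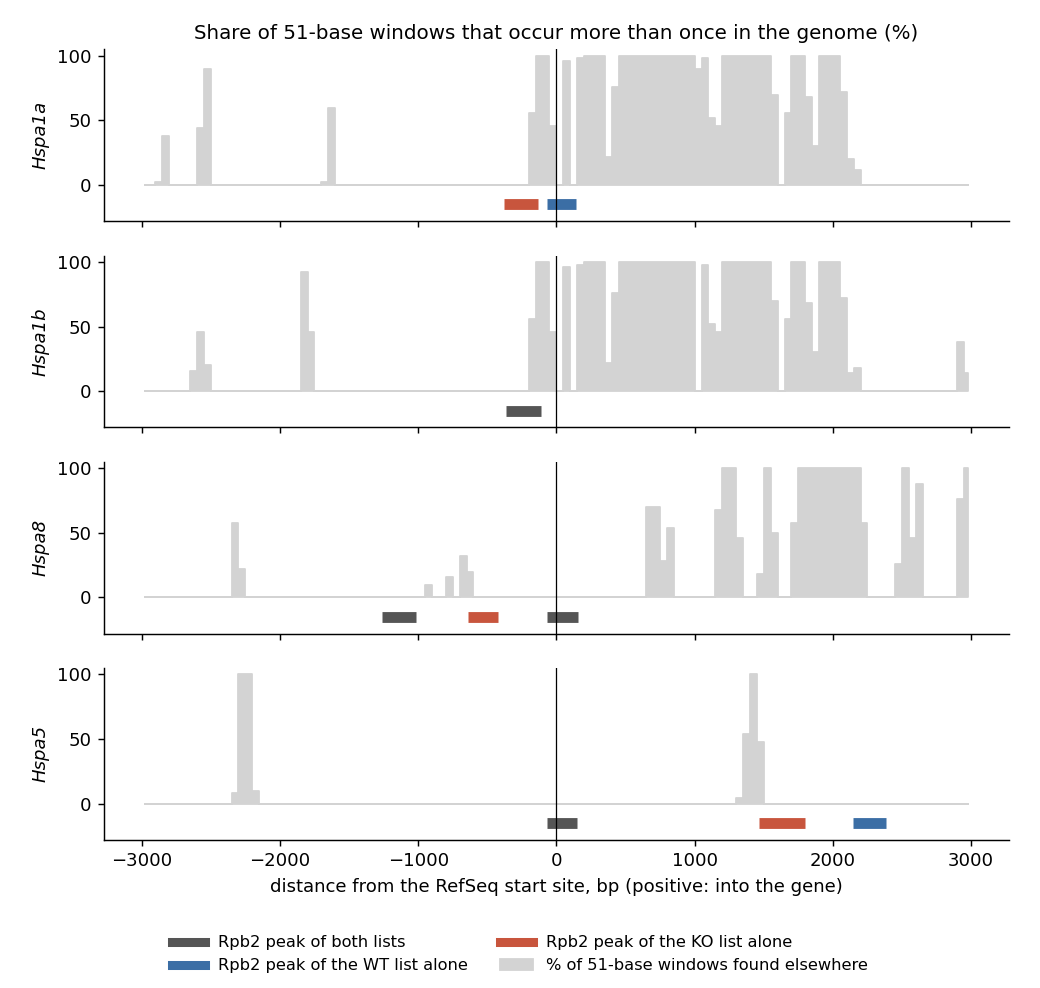
Share of 51-base windows found more than once in the genome (grey, in steps of 50 bp, %) against distance from the RefSeq start site (bp) for 4 members, with their Rpb2 peaks as bars coloured by the peak list they came from. The peak of *Hspa1b* and both of *Hspa1a* lie at the edges of the repeated stretch before the start site, whereas the promoter peaks of *Hspa8* and *Hspa5* lie on unique sequence.

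Promoter polymerase was compared first. In pooled cells, fewer cells with polymerase at a site and less polymerase per cell cannot be told apart. Peaks within 1000 bp of a start site were taken as promoter peaks, 12 for the members, and their values are CPM, reads per 1000000 of those the library held in all 10125 promoter peaks after TMM scaling. Per kb, at the promoter peak nearest each start site, members fell into a high group and a low group. *Hspa5*, the ER HSP70 also called BiP, was highest at 2483 ± 320 CPM per kb (SD, n = 4 pools), in the 99.4th percentile of promoter peaks. All 4 pools of *Hspa5* lay above all 4 pools of *Hsp90ab1*, the constitutive cytosolic HSP90, at 1666 ± 256. *Hspa8* (1553 ± 140), *Hsp90aa1* (1551 ± 232) and *Dnajb1* (1463 ± 121) came next, with ranges over the pools that overlapped between neighbours from *Hsp90ab1* down to *Dnajb1*. Every pool of these genes lay above *Hspa1b* at 413 ± 29.2 CPM per kb. *Hsph1* at 186 ± 53.4 and *Hspa1a* at 128 ± 42.6 followed, overlapped each other, and lay below the median promoter peak of 280 CPM per kb. Repeated windows made up 39.5% of this *Hspa1a* peak and 20.1% of the *Hspa1b* peak, and reads from repeated sequence were dropped. The places of *Hspa1a* and *Hspa1b* in this order, and in the low group, are therefore uncertain.

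**Figure D2:**
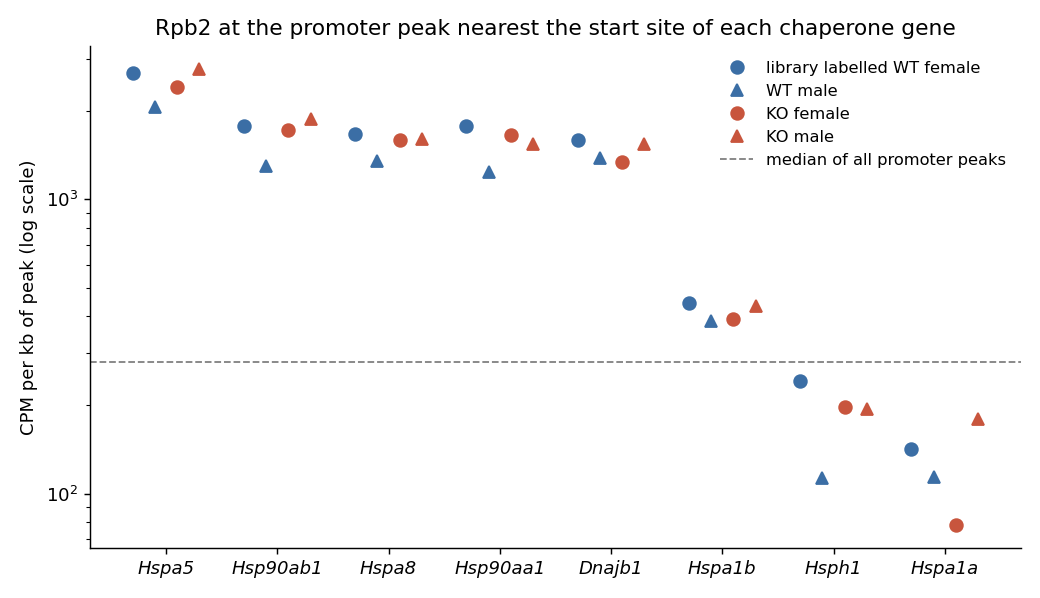
Rpb2 level at the promoter peak nearest the start site of each gene, in CPM per kb of peak on a log axis, for the 4 pools (blue, WT; red, KO; circles, female label; triangles, male), with the median of all promoter peaks as a dashed line. *Hspa5* lies between 2060 and 2778 in every pool, and at *Hspa1a*, the lowest, the WT points lie between the KO points.

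Polymerase at the main promoter peaks differed little between genotypes. The 6 promoter peaks that came from both genotypes' peak lists had log2 fold changes of KO over WT from −0.05 to 0.23. None of the members' 12 promoter peaks passed an adjusted p of 0.05 in the quasi-likelihood test of edgeR (Benjamini-Hochberg), and the background was 0%, 0 of 10125. Without adjustment, 3 member peaks and 1069 of all promoter peaks had a p under 0.05. Over all promoter peaks, DESeq2 called 20 (0.198%), the likelihood ratio test 125 (1.23%) and the newer quasi-likelihood method of edgeR 36 (0.356%), none of them a member.

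Among HSP70 genes, *Hspa8* encodes the constitutive cytosolic form. Its peak at 45 bp was 371 CPM in the WT pool labelled female and 301 in the male one, and 355 and 359 CPM in the KO female and male pools. Both KO pools lay between the WT pools, and the log2 fold change was 0.09 (SE 0.21, 95% interval −0.36 to 0.53, adjusted p = 0.932). *Hspa5* at 41 bp was 581 and 447 CPM in WT against 524 and 603 CPM in KO, in the same order of pools. Its groups overlapped, with a log2 fold change of 0.13 (SE 0.19, 95% interval −0.26 to 0.53, adjusted p = 0.86). The stress-inducible *Hspa1b*, at −239 bp, was 112 and 97.3 CPM in WT and 99.1 and 110 CPM in KO. The KO values again lay within the WT range, with a log2 fold change near 0 that had no stable sign (SE 0.36, 95% interval −0.75 to 0.74).

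For HSP90, *Hsp90aa1* encodes the inducible cytosolic form, and its only Rpb2 peak, at 104 bp, was 386 and 268 CPM in WT and 358 and 335 CPM in KO. The KO pools lay between the WT pools (log2 fold change 0.09, SE 0.23, adjusted p = 0.935). *Hsp90ab1* at 30 bp was 361 and 264 CPM in WT and 351 and 384 CPM in KO, with overlapping groups and a log2 fold change of 0.23 (SE 0.22, 95% interval −0.23 to 0.70, adjusted p = 0.765). The partners of HSP70 were alike in this respect. *Dnajb1*, the J-domain protein of the HSP40 family, was 358 and 312 CPM in WT and 301 and 346 CPM in KO (log2 fold change −0.05, SE 0.22, adjusted p = 0.966). *Hsph1*, the HSP110 exchange factor, was 56.0 and 26.2 CPM in WT and 45.6 and 44.8 CPM in KO, in a peak of the KO list alone (log2 fold change 0.14, SE 0.56, adjusted p = 0.963). The fit over all Rpb2 peaks, a different scaling, lowered the median log2 fold change of all promoter peaks from 0.02 to −0.11, and *Hspa8* at 45 bp and *Hsp90aa1* then turned to −0.04. Without the library labelled WT female, the 6 peaks of both lists had log2 fold changes of 0.05 to 0.47 and 0 passed the threshold.

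Flanking promoter peaks of *Hspa1a*, *Hspa8* and *Hsp90ab1* were higher in both KO pools than in both WT pools, without passing the adjusted threshold. At *Hspa1a*, the peak at −255 bp (chr17:34972289-34972534) was 14.3 and 12.0 CPM in WT and 48.9 and 63.3 CPM in KO, from 11 reads in each WT library and 148 and 89 reads in KO. The lower KO value was above the higher WT value, and the log2 fold change was 2.08 (SE 0.64, 95% interval 0.76 to 3.41, unadjusted p = 0.00374, adjusted p = 0.242 in the quasi-likelihood test). *Hspa8* at −530 bp (chr9:40800633-40800853) was 26.0 and 15.3 CPM in WT and 68.0 and 66.2 CPM in KO (log2 fold change 1.71, SE 0.56, adjusted p = 0.270). *Hsp90ab1* at 710 bp (chr17:45572447-45572656), in an intron, was 9.12 and 14.2 CPM in WT and 43.6 and 49.8 CPM in KO (log2 fold change 1.98, SE 0.68, adjusted p = 0.291). At *Hspa8* and *Hsp90ab1* the peak nearest the start site was stronger and overlapped between genotypes. The second *Hspa1a* peak, at 38 bp, was 30.0 and 24.1 CPM in WT and 16.5 and 37.7 CPM in KO, above the peak at −255 bp in both WT pools, below it in both KO pools, and overlapping between genotypes.

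The list from which a peak came moved with its difference. All 3 flanking peaks came from the KO list alone, and that list was made from the same libraries. Both KO pools lay above both WT pools at 21.7% of all promoter peaks and at 35% of those of the KO list alone, and both lay below at 20.4% of all. The median log2 fold change was 0.33 over the 3638 promoter peaks of the KO list alone, −0.06 over those of both lists and −0.71 over those of the WT list alone. Of the members' 12 promoter peaks, 6 came from both lists, 4 from the KO list alone and 2 from the WT list alone. The part of this selection, and of the depth of the KO female library, in the 3 differences was not tested. Leaving out each pool in turn, the 3 peaks had log2 fold changes of 1.89 to 2.27, 1.36 to 2.13 and 1.71 to 2.35. With both KO pools above both WT pools at each, leaving out 1 pool could not turn the sign and is no further support.

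**Figure D3:**
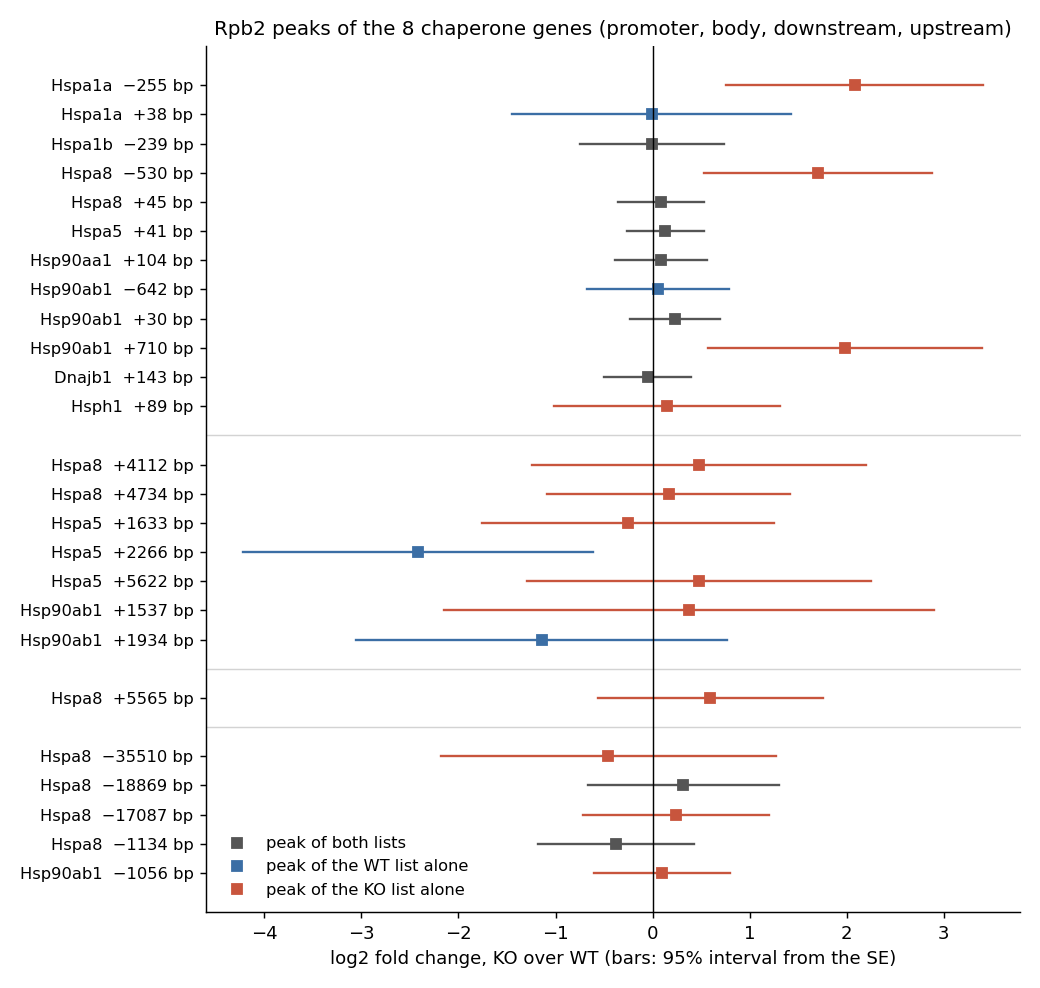
Log2 fold change of KO over WT for all 25 Rpb2 peaks of the 8 genes (squares, with 95% intervals from edgeR's SE), grouped from top to bottom into promoter, body, downstream and upstream peaks and coloured by peak list. The 3 promoter intervals that lie wholly above 0 belong to peaks of the KO list alone, and the 1 interval wholly below 0 belongs to the *Hspa5* peak at 2266 bp, from the WT list alone.

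Polymerase past the promoter was then examined. Body peaks, over 1000 bp downstream of the start site and not called intergenic, were found for 3 of the 8 members, 7 peaks in all. *Dnajb1* and *Hsph1* had none although their bodies are almost wholly unique sequence, and *Hsp90aa1*, *Hspa1a* and *Hspa1b* also had none. None of the 7 was on both lists. In the fit over all 26706 Rpb2 peaks, where CPM refer to reads in all peaks, 0 of 7 passed the adjusted threshold against a background of 0.00749%, and 1 of the 7 had an unadjusted p under 0.05, as did 13.9% of all 9255 body peaks. DESeq2, the likelihood ratio test and the newer quasi-likelihood method called 0 of the 7, against 3.83%, 3.46% and 1.02% of all Rpb2 peaks.

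*Hspa5* held 3 body peaks. The peak at 2266 bp (chr2:34774236-34774476), in an exon, was 35.0 and 11.2 CPM in WT and 4.91 and 3.51 CPM in KO, female label first. Both KO pools were below both WT pools (log2 fold change −2.42, SE 0.83, adjusted p = 0.28), the peak came from the WT list alone, and the WT pools themselves lay apart. Without the library labelled WT female the log2 fold change was −1.39 (adjusted p = 0.357), and without the WT male it was −3.01 and passed the threshold (adjusted p = 0.00426), where 7.35% of all Rpb2 peaks passed. Among all 1598 body peaks of the WT list alone, 21.3% were lower in KO at an unadjusted p under 0.05 in the main quasi-likelihood fit. Their median log2 fold change was −0.91. The share of all body peaks, downstream peaks or ratios whose pools separate by genotype was not counted. The *Hspa5* peak at 1633 bp was 17.9 and 12.5 CPM in WT and 14.0 and 11.3 CPM in KO. The peak at 5622 bp lies past the RefSeq end of *Hspa5*, at the end of the convergent gene *Rabepk*, and was 5.44 and 18.4 CPM in WT and 8.37 and 25.7 CPM in KO.

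*Hsp90ab1* had body peaks at 1537 and 1934 bp, both in introns. The first had 26 and 0 WT reads and 79 and 29 KO reads, female label first, so it was read in 1 of the 2 WT pools. It passed the threshold only without the library labelled WT female (adjusted p = 0.00461), where the remaining WT library is at 0 and 8.28% of all Rpb2 peaks passed. The second was 12.4 and 12.5 CPM in WT and 3.64 and 7.80 CPM in KO, lower in both KO pools (log2 fold change −1.14, SE 0.88, adjusted p = 0.622), and came from the WT list alone. A peak named for the neighbour *Slc35b2* (chr17:45567493-45567702) lies just past the RefSeq 3′ end of *Hsp90ab1* and was 18.7 and 21.7 CPM in WT and 21.6 and 7.80 CPM in KO. The peaks of *Hspa8* at 4112 and 4734 bp, and 1 called intergenic at 5565 bp, lie past the RefSeq end of the gene. WT pools gave 3.89 and 20.4 CPM at 4112 bp, 14.8 and 23.7 at 4734 bp and 16.3 and 21.7 at 5565 bp. KO pools gave 20.9 and 13.3, 22.2 and 21.1, and 32.2 and 25.3 CPM, so the genotypes overlapped at 4112 and 4734 bp and both KO pools lay above at 5565 bp (log2 fold change 0.60, SE 0.53, adjusted p = 0.678).

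Setting body against promoter reads within each library removes the depth of the library from the comparison. The log2 changes below follow TMM scaling of promoter and body sums over all genes fitted. Each is therefore relative to the typical gene and need not equal the change in the gene's own shares. For *Hspa5*, body reads were 16.8 and 15.6% of promoter reads in WT (female label, then male), against 9.45 and 12.3% in KO. Both KO pools were lower. Relative to the typical gene, the ratio changed by −0.88 on the log2 scale (SE 0.36, unadjusted p = 0.0361, adjusted p = 0.302 in edgeR's quasi-likelihood test of genotype by region). Leaving out each pool gave −1.08 to −0.67, and could not turn the sign with both KO pools below both WT pools. The separation rests on the peak at 2266 bp, from the WT list alone: without it, an alternative added after the data were seen, WT shares were 6.73 and 11.5% and KO shares, 7.75 and 11.2%, fell between them, and the log2 change was −0.22 (adjusted p = 0.853). For *Hsp90ab1*, WT shares were 11.6 and 5.35% and KO shares 6.58 and 6.35%, with the KO pools between the WT pools (log2 change −0.62, SE 0.46, adjusted p = 0.571). The change was −0.0823 without the library labelled WT female, the low end of the size over left-out pools, which reached −1.09. For *Hspa8*, WT shares were 7.87 and 23.2% and KO shares 18.5 and 14.7%, again between the WT pools (log2 change −0.06, SE 0.57, adjusted p = 0.972). The background was 0%, 0 of 2246 genes with both kinds of peak, and 325 (14.5%) had an unadjusted p under 0.05. limma on the log2 ratio also called 0. With body peaks inside the RefSeq span only, another alternative added after the data were seen, the log2 change of *Hspa5* was −1.36 (adjusted p = 0.223), that of *Hsp90ab1* −0.605, and *Hspa8* could not be fitted because its body peaks lie past the end of the gene.

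In called peaks, all 3 genes had denser reads at the promoter than in the peaks counted as body. Per base of peak, the mean log2 ratio of body over promoter density was −4.96 for *Hspa5*, which placed it in the 0.712th percentile of these genes. The ratio was −3.33 for *Hsp90ab1* and −3.09 for *Hspa8*, in the 14.2nd and 18.0th percentiles. Both peaks counted as body for *Hspa8* lie past its RefSeq end, so its ratio does not describe polymerase within the gene. The *Hspa5* ratio also includes a peak past the end of that gene. The measure uses reads in called peaks only, so polymerase spread below the peak caller's threshold along a body is not counted.

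**Figure D4:**
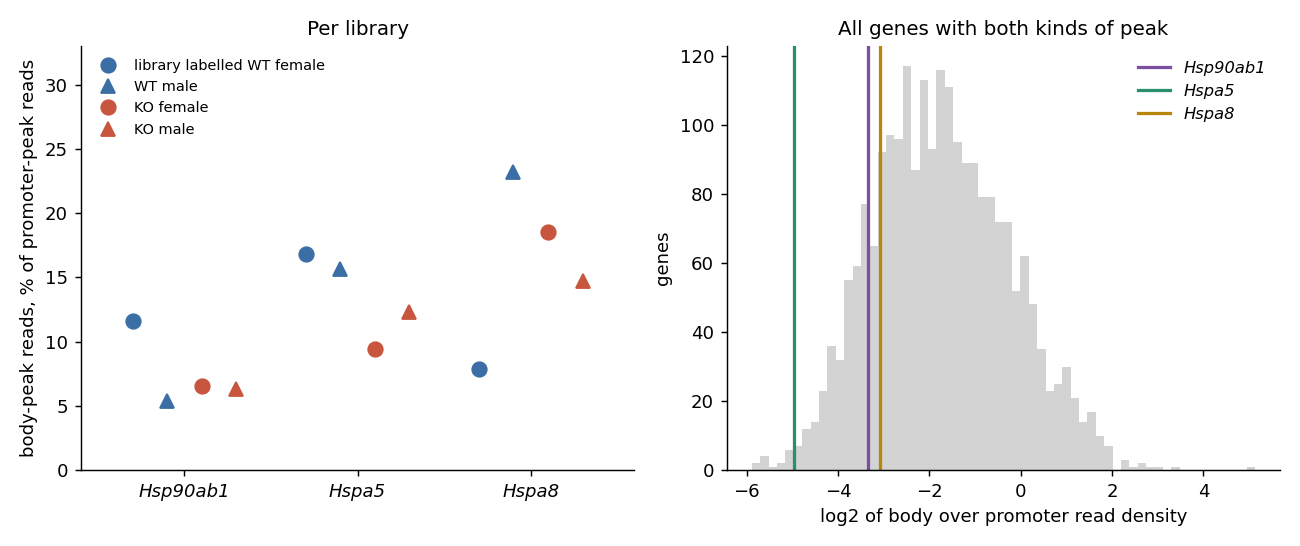
Left, reads in body peaks as a percentage of reads in promoter peaks for the 3 members that have both, in each of the 4 pools (blue, WT; red, KO; circles, female label; triangles, male). Right, histogram of the log2 ratio of body over promoter read density for 2246 genes, with the 3 members as lines: *Hspa5* lies at −4.96, in the low tail, and both KO pools of *Hspa5* lie below both WT pools.

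The remaining 5 Rpb2 peaks lay upstream. Those of *Hspa8* at −35510, −18869 and −17087 bp are placed by the annotation within *Clmp*, a neighbouring gene, and those of *Hspa8* at −1134 bp and *Hsp90ab1* at −1056 bp are called intergenic. Per kb, the last 2 lay in the 92.2nd and 92.9th percentiles of upstream peaks. *Hspa8* at −1134 bp was 52.9 and 71.8 CPM in WT and 55.1 and 40.6 CPM in KO. *Hsp90ab1* at −1056 bp was 59.9 and 86.2 CPM in WT and 69.1 and 88.2 CPM in KO, and together with the promoter peak at −642 bp (100 and 109 CPM in WT, 102 and 116 CPM in KO) it adjoined the *Hsp90ab1* start. Genotypes overlapped at all 5.

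Acetylation of the same promoters was read from the H3K27Ac libraries, with CPM relative to all peaks of that mark. Each of 7 members had 1 promoter peak, on both lists, 934 to 5086 bp wide. *Hspa1a* had none under its own name, but a peak named for *Hspa1l* (chr17:34971820-34973515), a divergent HSP70 gene, covers its start site and was 11.3 and 28.1 CPM in WT and 20.4 and 24.1 CPM in KO. Per kb of peak, *Hsp90ab1* was highest at 29.5 ± 2.19 CPM (SD, n = 4 pools; 98.9th percentile of promoter peaks) and *Hspa5* followed at 28.3 ± 1.46. *Dnajb1* (24.9 ± 2.84), *Hspa1b* (21.7 ± 3.48), *Hspa8* (19.3 ± 0.688), *Hsp90aa1* (14.2 ± 4.70) and *Hsph1* (9.52 ± 1.97) came next. Neighbours in this order overlapped throughout, and *Hsph1* lay below the median promoter peak of 10.8 CPM per kb. Repeated windows made up 38.6% of the *Hspa1b* peak, so its place in this order is uncertain.

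H3K27Ac at the members' promoters gave no call between genotypes. Log2 fold changes ran from −0.02 to 0.21, with SEs of 0.29 to 0.42. None of the 20 peaks passed the adjusted threshold in edgeR's quasi-likelihood test, and DESeq2 called 0. In the quasi-likelihood test 2 of the 20 had an unadjusted p under 0.05, as did 4.95% of all H3K27Ac peaks. Over all H3K27Ac peaks, the background was 0.0233%, 13 of 55798, and DESeq2 called 240 (0.43%). *Hsp90ab1* was 118 and 110 CPM in WT and 131 and 119 CPM in KO (log2 fold change 0.13, SE 0.30, adjusted p = 1). H3K27Ac at *Hspa5* was 81.4 and 81.7 CPM in WT and 80.3 and 89.6 CPM in KO. *Dnajb1*, with 56.2 and 53.7 CPM in WT and 58.1 and 69.0 CPM in KO, had the highest of these log2 fold changes, 0.21 (SE 0.29, 95% interval −0.36 to 0.78, adjusted p = 0.965). *Hsp90aa1* separated by sex label rather than genotype, at 39.0 and 42.3 CPM in the female libraries and 21.3 and 24.3 CPM in the male ones. *Hspa1b*, *Hsph1* and, by a narrow margin, *Hspa5* divided by label the other way, higher in both male libraries. The share of all promoter peaks that divide by label was not counted, so no effect of sex is read from these values. *Hspa1b* was 16.9 and 23.7 CPM in WT and 18.0 and 22.3 CPM in KO, *Hspa8* was 97.5 and 94.3 CPM in WT and 103 and 98.8 CPM in KO, and *Hsph1* was 14.7 and 16.6 CPM in WT and 13.2 and 21.03 CPM in KO. Both KO pools lay above both WT pools at *Hsp90ab1*, *Hspa8* and *Dnajb1*, 3 of the 7 peaks against 20.2% of all H3K27Ac promoter peaks, by less than the SE in each. Without the WT female library, whose share of reads in peaks was low, the 7 log2 fold changes ran from −0.24 to 0.64 and 0 passed the threshold.

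**Figure D5:**
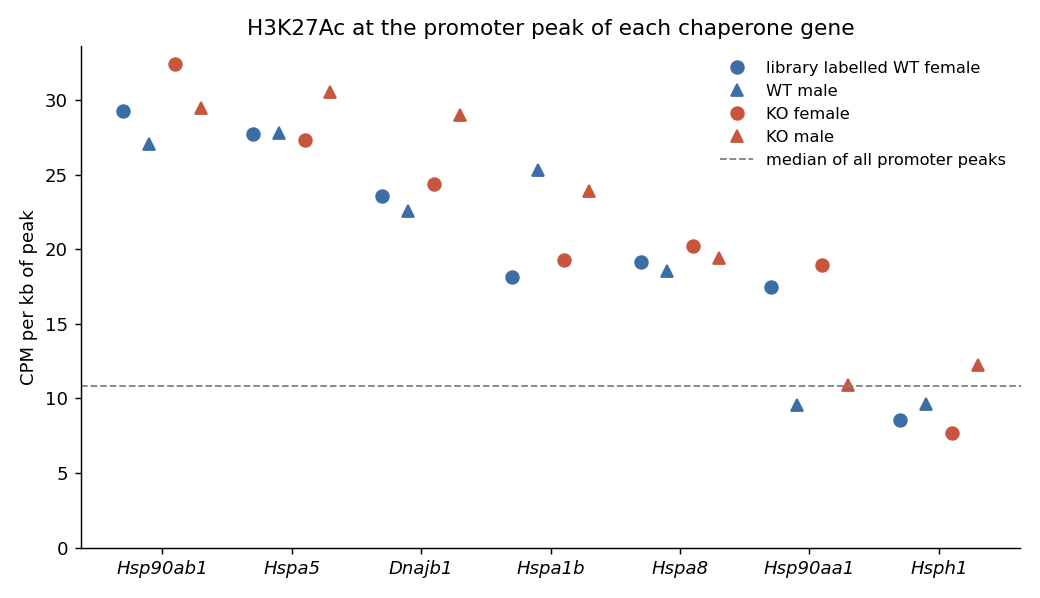
H3K27Ac at the promoter peak of each of 7 members, in CPM per kb of peak, for the 4 pools (blue, WT; red, KO; circles, female label; triangles, male), with the median of all promoter peaks as a dashed line. WT and KO points lie close together for every gene. Points of *Hsp90aa1* are higher for the female label, and those of *Hspa1b*, *Hsph1* and, narrowly, *Hspa5* for the male label. How often other promoter peaks divide by label was not counted.

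The other 13 H3K27Ac peaks lay beyond the promoters. The peak of *Hspa8* at −35639 bp (chr9:40764799-40766470), in an intron of *Clmp*, was 7.91 and 10.1 CPM in WT and 15.3 and 24.6 CPM in KO, higher in both KO pools (log2 fold change 1.14, SE 0.46, unadjusted p = 0.0137, adjusted p = 0.811); without the WT female library it was 0.98. The strongest, *Hspa8* at −16150 bp, was 55.4 and 104 CPM in WT and 90.4 and 96.6 CPM in KO. Its log2 fold change of 0.22 became 0.76 (adjusted p = 0.00329) without the WT male, when the low WT female library stood alone for WT and 14.8% of all H3K27Ac peaks passed, and −0.16 without the WT female. The peak named for *Hsph1* at 41459 bp held 34 WT female reads and 0 in the other 3 libraries, which allow up to 3 reads each by counting error alone, and it was the other member peak that passed without the WT male (adjusted p = 0.00606, against the same 14.8% of all). *Hspa8* at −57435 bp was 21.5 and 40.4 CPM in WT and 22.9 and 26.6 CPM in KO, and *Hsp90aa1* at −10583 bp was 8.19 and 1.92 CPM in WT and 7.22 and 8.11 CPM in KO, with overlap at both. The other 3 upstream peaks held at most 40 reads in any library, and the 5 body peaks of *Hspa8*, *Hspa5* and *Hsp90ab1* at most 81.

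Other genes of the chaperone network were read from the same fits. Of 98 listed genes, 75 had 96 promoter Rpb2 peaks, of which 0 passed the adjusted threshold, 3 were higher and 11 lower in KO at an unadjusted p under 0.05, and DESeq2 called 0. Over all 10125 promoter peaks, 4.42% were higher and 6.13% lower at that p. Their median log2 fold change was −0.12, against 0.02 over all promoter peaks and 0.11 over the 12 peaks of the members. By list, the median was −0.34 for 17 peaks of the J-domain family, −0.27 for 19 peaks of ER chaperones, −0.21 for 11 of the chaperonin and prefoldin, −0.06 for 7 of mitochondrial chaperones, −0.03 for 19 of co-chaperones and 0.00 for 15 of stress response regulators. It was 0.13 for 5 peaks of other genes of the cytosolic HSP70, HSP110 and HSP90 families and 1.11 for 3 of small heat shock proteins. The lowest p belonged to *Dnajc2*, a ribosome-bound J-domain protein, at 98.0 ± 29.9 CPM in WT and 32.2 ± 13.8 CPM in KO (SD, n = 2 pools each; log2 fold change −1.63, adjusted p = 0.239). *Ahsa2*, related to an activator of the HSP90 ATPase, followed at 21.8 ± 3.19 and 1.49 ± 2.10 CPM (log2 fold change −3.55, adjusted p = 0.243) in a peak of the WT list alone. *Pdia3*, a disulfide isomerase of the ER, was 361 ± 7.64 CPM in WT and 222 ± 5.61 CPM in KO (log2 fold change −0.70, adjusted p = 0.260). Without the library labelled WT female, *Dnajc2* (adjusted p = 0.0297) and *Ahsa2* (adjusted p = 0.0373) passed the threshold in edgeR's quasi-likelihood test, as did *Dnajc21*, another J-domain gene, higher in KO (log2 fold change 3.13, adjusted p = 0.0184), where 2.34% of all promoter peaks passed. The likelihood ratio test, which called 1.23% of all, called *Ahsa2*. Without the WT male, 1 peak of *Hspb6*, a small heat shock protein, passed (adjusted p = 0.0245), as did 1.04% of all promoter peaks.

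For H3K27Ac, 87 of the 98 genes had 226 peaks, of which 0 passed the adjusted threshold in the quasi-likelihood test and 5 were higher and 5 lower in KO at an unadjusted p under 0.05. Over all 55798 peaks, 1.35% were higher and 3.6% lower at that p. The lowest p values belonged to distal peaks of regulators of the ER stress response and of 1 J-domain gene. These were *Eif2ak3*, which encodes the sensor PERK (6.88 ± 2.93 CPM in WT, 17.4 ± 2.19 CPM in KO), *Atf6* (25.3 ± 13.8 and 43.5 ± 1.90 CPM) and *Dnajc13* (10.3 ± 0.271 and 21.1 ± 5.07 CPM), each with an adjusted p of 0.811 in that test. At the 79 promoter peaks of the lists, the median log2 fold change was −0.01 in the fit over promoter peaks, where the 7 members had a median of 0.07 and all promoter peaks 0.00.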

How the data were processed

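ChIP-seq tables of microglia from WT and KO mice were used for 8 libraries. The authors used Bowtie 2 and mm10 for 51-nt single-end reads, discarded reads that mapped to more than 1 place, ran HOMER to find peaks, selected by irreproducible discovery rate between pools, joined the peak lists of both genotypes, and deposited raw read counts of each joined peak; versions are not given in the sources used here. Chromosome lengths fitted the GRCm38.p6 reference, with 0 peaks past a chromosome end. The members, lists and tests were chosen with earlier results of these data known; the motif of 2 units was added after the sequences were seen.

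Tests on counts used R 4.3.3 and edgeR 4.0.16 (glmQLFit, glmQLFTest, TMM, Benjamini-Hochberg adjustment over every peak fitted, threshold 0.05) in a model of genotype. Rpb2 promoter peaks (within 1000 bp of a start site) were fitted together, body and other Rpb2 peaks in a fit over all Rpb2 peaks, and H3K27Ac peaks in a fit over all peaks of that mark. Peaks whose mean was under 4 reads in both genotypes were left out. SEs are the log2 fold change over the root of the F statistic. Body and promoter sums of a gene, with at least 20 reads each, were compared in a model with the library as a block and a term for genotype by region. TMM was computed over the promoter and body columns together, which makes that term relative to the typical gene. For 2 pools against 2, exact permutation of a single peak cannot reach 0.05. P values and SEs rest mostly on a spread between pools that edgeR shares over peaks, and for H3K27Ac almost wholly. Residual plus prior degrees of freedom were 20 for Rpb2 promoter peaks, 12.2 for all Rpb2 peaks and 112000 for H3K27Ac. Pools of one sex label are different animals; over peaks, same-sex deviations correlated at 0.000122 for Rpb2 and 0.00429 for H3K27Ac. Alternatives were DESeq2 1.42.0, limma 3.58.1, other filters and scalings, and each pool left out. Other genes were named when their adjusted p was under 0.05, and otherwise as the 3 with the lowest p per mark. The quasi-likelihood fits of Rpb2 promoter peaks, all Rpb2 peaks, all H3K27Ac peaks and the ratio were tested on simulated counts with known changes. The alternative tests were not. Repeated windows, motifs and plots used Python 3.11.15, NumPy 2.4.6, pandas 2.3.3, Numba 0.67.0 and matplotlib 3.10.9. The number of unused columns of per-sample values was 0. Count-based limits cover counting error only, since reads carry no molecular identifiers.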

Additional observations from a re-analysis of the deposited data

How the results depend on the processing

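Calls among the members' Rpb2 promoter peaks and body-to-promoter ratios stayed at 0 in every alternative, left-out pools included. Leaving out each pool in turn moved the number of called body peaks between 0 and 1, of called H3K27Ac peaks between 0 and 2 and of called promoter peaks of the other genes between 0 and 3; over all peaks these fits called 0 to 8.28% of Rpb2 peaks, 0.138 to 2.34% of Rpb2 promoter peaks and 0.00364 to 14.8% of H3K27Ac peaks. Fits without a pool assume that the lone sample varies like the other genotype. With the sex label as a replicate block, 0 member promoter peaks, 0 body peaks, 0 ratios, 0 H3K27Ac peaks and 0 peaks of the other genes were called, so pairing by this label changed no call. For Rpb2 the block does not test sex, because the Y reads of the library labelled WT female go against its label. Alternatives that keep every pool left 219 of 232 single values with their direction and call and turned 13, all of them uncalled and small; the cause was not tested. With at least 10 reads in every library the log2 fold changes were 0.021 for *Hspa1a* at 38 bp and 0.0322 for *Hspa1b*, and with peaks of both lists only, an alternative added after the data were seen, 0.046 for *Hspa1b*. In the fit over all Rpb2 peaks they were −0.0381 for *Hspa8* at 45 bp, −0.0371 for *Hsp90aa1* and −0.0705 for *Hsp90ab1* at −642 bp, which was −0.0104 without TMM. H3K27Ac at *Hspa5* was −0.00028 in DESeq2 and −0.00089 with at least 10 reads. The ratio of *Hsp90ab1* became 0.213 with a promoter window of 500 bp, and that of *Hspa8* 0.0895 there, 0.224 without TMM and 0.0176 with intergenic peaks.

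Pools left out in turn turned the sign 26 times, over these ranges of the log2 fold change. Rpb2 promoter peaks ran from −0.706 to 0.495 for *Hspa1a* at 38 bp, −0.105 to 0.099 for *Hspa1b*, −0.0577 to 0.247 for *Hspa8* at 45 bp, −0.0453 to 0.333 for *Hspa5*, −0.15 to 0.37 for *Hsp90aa1*, −0.0342 to 0.159 for *Hsp90ab1* at −642 bp, −0.155 to 0.0599 for *Dnajb1* and −0.31 to 0.78 for *Hsph1*. Body peaks ran from −0.26 to 2.14 and −0.15 to 0.55 for *Hspa8* at 4112 and 4734 bp, −0.485 to 0.0103 and −0.52 to 1.61 for *Hspa5* at 1633 and 5622 bp, and −0.64 to 8.37 for *Hsp90ab1* at 1537 bp, whose upper value is set against 0 reads and depends on the prior count. H3K27Ac promoter peaks ran from −0.24 to 0.25 for *Hspa1b*, −0.0145 to 0.135 for *Hspa5*, −0.30 to 0.64 for *Hsp90aa1* and −0.24 to 0.42 for *Hsph1*, and the ratio of *Hspa8* from −0.84 to 0.84. Peaks with under 20 reads in a library, several body peaks among them, are limited by depth.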
